A study of Mus musculus with 2 samples.

Results

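Foxp3 and 8 genes known from the regulatory T lineage (Ikzf2, Ikzf4, Lrrc32, Nrp1, Izumo1r, Gpr83, Tiam1 and Capg) were followed through single splenic T cells of mice given a benzodiazepine. The 9 genes were chosen by name, with earlier results of these data known. All 9 were among the 19837 genes of the deposited expression table. Spleen cells came from female C57/BL6N mice injected with saline (labelled 0 h) or with remimazolam at 6 mg/kg and taken 4 h or 8 h later. Each of the 3 groups pooled 3 mice under 1 sample tag, and all 3 tags went through 1 BD Rhapsody whole-transcriptome capture. Remimazolam is a short-acting benzodiazepine, an agonist of the GABA(A) receptor, and by its title the series is about how the drug changes T cells, their activation state and regulatory cells among them. The cells were sorted for CD45, CD3 and CD5 by one label and for CD45 by another. Saline was labelled at 0 h only, so time after injection and the drug cannot be told apart.

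Regulatory T cells are CD4 T cells that restrain other lymphocytes, and the forkhead transcription factor Foxp3 is their defining regulator. Foxp3 acts with partners, among them Helios (Ikzf2) and Eos (Ikzf4) of the Ikaros zinc finger family, and with them maintains a surface made for suppression. That surface includes GARP (Lrrc32), which holds latent TGF-beta, the semaphorin and VEGF co-receptor neuropilin-1 (Nrp1), folate receptor 4 (Izumo1r) and the orphan receptor Gpr83. Tiam1 is an exchange factor that activates Rac, and Capg is a capping protein of actin filaments.

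Each pool gave 5267 to 5433 cells and a median of 2510 to 2530 molecules a cell, where a molecule is a unique molecular identifier after the recursive substitution error correction (RSEC) of the pipeline. T cells with Cd4 and no Cd8a or Cd8b1 molecule are called Cd4+ here, and those with Cd8a or Cd8b1 and no Cd4 are called Cd8+. A Foxp3+ cell had at least 1 Foxp3 molecule. Levels are in CPM, the molecules of a gene per 1000000 molecules when both are summed over the cells of a class, with exact 95% Poisson intervals. Shares of cells carry exact Clopper-Pearson intervals, and ratios between pools carry 95% conditional binomial intervals. All of these cover counting error only: with 1 pool a treatment there is no replicate of a treatment, and no test between treatments was made. In Foxp3+ Cd4+ cells 6 defining markers of regulatory T cells (Foxp3, Il2ra, Ctla4, Ikzf2, Tnfrsf18 and Lrrc32, the first of which chose the cells and is at 0 in Foxp3- cells by definition) summed to 3284 to 3534 CPM, against 144 to 188 CPM in Foxp3- Cd4+ cells and 106 to 121 CPM in Cd8+ cells.

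The genes lie on 8 chromosomes in the GENCODE annotation of the mouse build GRCm38. Foxp3 is at chrX:7573644-7595245 on the plus strand, Ikzf2 at chr1:69531214-69687245 on the minus strand, Ikzf4 at chr10:128630843-128645991 on the minus strand and Lrrc32 at chr7:98489283-98502181 on the plus strand. Nrp1 is at chr8:128358604-128503363 and Capg at chr6:72544391-72562983, both on the plus strand, and Tiam1 is at chr16:89787111-90143769 on the minus strand. Gpr83 (chr9:14860210-14870789, plus strand) and Izumo1r (chr9:14885814-14903949, minus strand) are neighbours. They point towards each other with 15024 bases and 0 annotated genes between them.

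Promoter windows from RefSeq (GRCm38.p6), cut to the 200 bases before a start site and the first 30 after it, were found for 6 of the 9 genes. Ikzf2, Ikzf4 and Lrrc32 had no window. The 4 windows below are shown because they belong to the defining factor and to the pair of neighbouring surface receptors. Capitals mark matches on either strand to the TATA word TATAAA. They also mark the NFAT word TGGAAA, and the STAT word TTCNNNGAA. The windows are, in order, chrX:7579476-7579705 (plus strand), chrX:7580283-7580512 (plus strand), chr9:14860010-14860239 (plus strand) and chr9:14903738-14903967 (minus strand).
Foxp3, upstream start: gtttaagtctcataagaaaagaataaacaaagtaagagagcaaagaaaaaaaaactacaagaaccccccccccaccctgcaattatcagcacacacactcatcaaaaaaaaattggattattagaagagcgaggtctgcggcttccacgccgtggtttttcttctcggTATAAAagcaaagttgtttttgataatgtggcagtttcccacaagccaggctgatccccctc
Foxp3, downstream start: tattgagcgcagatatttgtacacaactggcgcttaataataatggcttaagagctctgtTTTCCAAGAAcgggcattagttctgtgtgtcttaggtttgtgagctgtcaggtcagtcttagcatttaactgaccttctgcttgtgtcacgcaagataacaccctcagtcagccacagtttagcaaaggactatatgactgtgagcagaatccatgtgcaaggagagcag
Gpr83: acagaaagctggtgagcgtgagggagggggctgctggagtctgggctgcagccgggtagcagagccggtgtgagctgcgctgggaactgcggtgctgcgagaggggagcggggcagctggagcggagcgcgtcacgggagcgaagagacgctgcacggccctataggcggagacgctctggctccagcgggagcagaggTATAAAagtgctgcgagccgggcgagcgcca
Izumo1r: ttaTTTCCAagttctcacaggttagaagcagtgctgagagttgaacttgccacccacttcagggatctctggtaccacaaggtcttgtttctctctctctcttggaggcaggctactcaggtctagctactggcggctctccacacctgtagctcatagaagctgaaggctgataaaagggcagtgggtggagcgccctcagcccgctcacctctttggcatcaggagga
The upstream Foxp3 window and the Gpr83 window each held 1 TATAAA, a word found in 10.7% of 32851 promoter windows of the same length. The downstream Foxp3 window held TTCNNNGAA, found in 6.32% of windows, overlapping a TGGAAA match on the other strand. TGGAAA was found in 16.6% of windows and also in that of Izumo1r and in 1 of the 2 Tiam1 windows. The forkhead words TGTTTAC and TGTTTGC (6.49% of windows), the cyclic AMP response element TGACGTCA (1.67%) and the Runx word TGTGGTT (4.01%) were in none of the 8 windows of these genes. A match is a description of letters and shows no binding.

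Foxp3 was found in a small share of Cd4+ cells, close in all 3 pools. It was detected in 126 of 1891 Cd4+ cells after saline (6.66%, 5.58 to 7.88), in 144 of 1863 at 4 h (7.73%, 6.56 to 9.04) and in 154 of 2017 at 8 h (7.64%, 6.51 to 8.88). The share relative to saline was 1.16 at 4 h (0.907 to 1.49) and 1.15 at 8 h (0.900 to 1.46), so a difference was not detectable at this depth. The share of Cd4+ cells with at least 2 Foxp3 molecules was 4.28% after saline, 5.37% at 4 h and 5.35% at 8 h.

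Foxp3+ Cd4+ cells carried few Foxp3 molecules each. Of the 424 cells, 135 had 1 molecule, 145 had 2 or 3 and 144 had 4 or more, with a maximum of 12 after saline, 17 at 4 h and 20 at 8 h. Summed over these cells, Foxp3 stood at 1129 CPM after saline, 1069 at 4 h and 1075 at 8 h. The ratios to saline were 0.947 (0.828 to 1.08) and 0.952 (0.833 to 1.09), so both intervals included 1. With all Foxp3+ T cells without Cd8, a wider class chosen after seeing the data, the Foxp3 ratio was 0.936 at 4 h (0.844 to 1.04) and 0.857 at 8 h (0.771 to 0.953), and the second interval left out 1. Thinned to 1500 molecules a cell, 83.8% of the 400 Foxp3+ cells deep enough still showed Foxp3. This gives only the further loss from thinning cells already chosen for Foxp3. It does not give the share of cells whose Foxp3 was missed at full depth.

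The Ikaros factors separated Foxp3+ from Foxp3- Cd4+ cells in each pool. Ikzf2, which encodes Helios, stood at 1225 CPM after saline, 1112 at 4 h and 991 at 8 h in Foxp3+ cells, and at 61.1, 61.8 and 86.4 CPM in Foxp3- Cd4+ cells. Cd8+ cells held 49.9, 49.7 and 53.9 CPM of Ikzf2. All 3 Foxp3+ sums were above all 6 others, and the Foxp3- Cd4+ and Cd8+ sums lay near each other. Ikzf4, which encodes Eos, stood at 158, 138 and 162 CPM in Foxp3+ cells, at 19, 28.6 and 19.3 in Foxp3- Cd4+ cells and at 8.5, 8.58 and 13.9 in Cd8+ cells. The Ikzf4 values of the 3 classes did not overlap. At 8 h its intervals in Foxp3- Cd4+ (15.5 to 23.7) and Cd8+ cells (11.0 to 17.3) did.

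The surface genes showed the same order of classes, with different distances between them. Lrrc32 stood at 141 CPM after saline, 147 at 4 h and 118 at 8 h in Foxp3+ cells, at 4.14, 4.12 and 8.18 in Foxp3- Cd4+ cells and at 1.39, 0.825 and 0.522 in Cd8+ cells, where it rested on 8, 5 and 3 molecules. Nrp1 stood at 132, 116 and 112 CPM in Foxp3+ cells, at 15.7, 20.8 and 17.0 in Foxp3- Cd4+ cells and at 2.60, 2.14 and 3.13 in Cd8+ cells. In every pool both genes were highest in Foxp3+ and lowest in Cd8+ cells. After saline the Lrrc32 intervals of Foxp3- Cd4+ (2.49 to 6.47) and Cd8+ cells (0.599 to 2.73) overlapped. Izumo1r stood at 681, 697 and 755 CPM in Foxp3+ cells, at 199.97, 213.6 and 214.7 in Foxp3- Cd4+ cells and at 44.7, 51.8 and 48.9 in Cd8+ cells, so it was also well detected in Foxp3- Cd4+ cells. Its neighbour Gpr83 stood at 118, 172 and 116 CPM in Foxp3+ cells, at 17.7, 18.1 and 24.9 in Foxp3- Cd4+ cells and at 6.94, 9.57 and 10.4 in Cd8+ cells.

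Tiam1 and Capg, the genes of the cytoskeleton, followed the same order. Tiam1 stood at 251 CPM after saline, 234 at 4 h and 268 at 8 h in Foxp3+ cells, at 44.9, 40.3 and 44.9 in Foxp3- Cd4+ cells and at 3.47, 6.10 and 2.44 in Cd8+ cells. Capg stood at 194, 214 and 171 CPM in Foxp3+ cells, at 32.5, 27.7 and 32.5 in Foxp3- Cd4+ cells and at 9.54, 11.2 and 11.5 in Cd8+ cells. B cells, which should lack a regulatory T cell programme, held Capg at 156, 185 and 191 CPM, close to the Foxp3+ level. The other genes were nearly empty in the 388 B cells, with 0 molecules of Gpr83, Ikzf4 and Nrp1, 1 each of Ikzf2 and Lrrc32, 2 each of Foxp3 and Tiam1 and 10 of Izumo1r. The summed B cell markers stood at 19.1 CPM in Foxp3+ cells, 6.56 in Foxp3- Cd4+ cells, 20.8 in Cd8+ cells and 8749 in B cells. The part of B cell RNA in the Capg level was not tested.

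**Figure D1:**
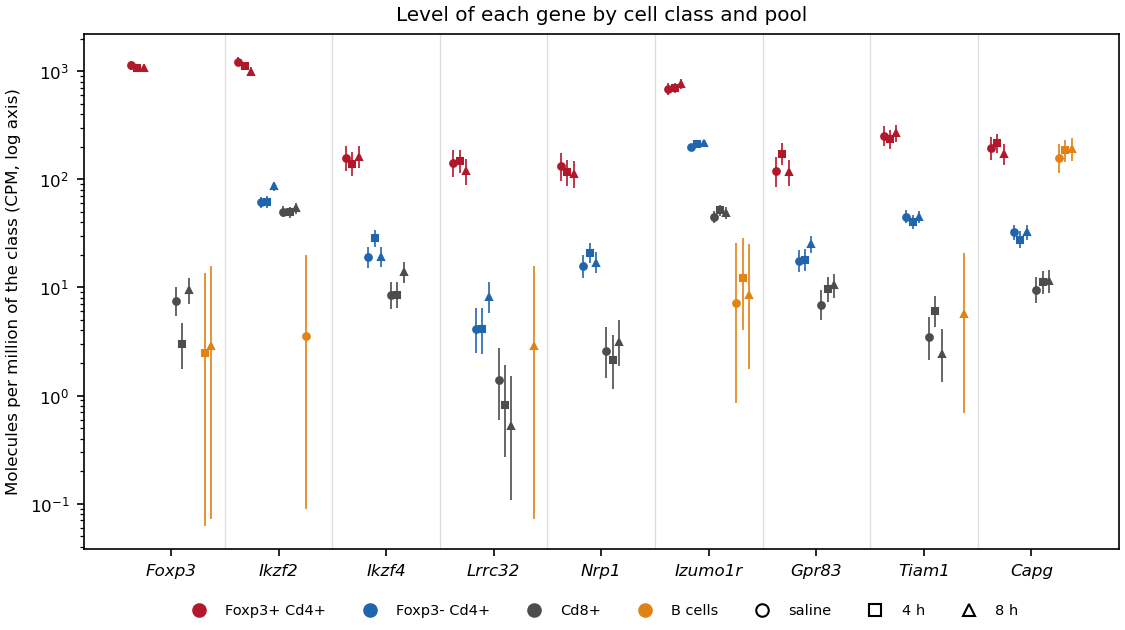
Level of each of the 9 genes in CPM (log axis) in Foxp3+ Cd4+, Foxp3- Cd4+, Cd8+ and B cells, 1 point for each pool with its exact 95% Poisson interval and no point where a pool held 0 molecules. For the 8 genes other than Foxp3 the Foxp3+ Cd4+ points lie above the Foxp3- Cd4+ and Cd8+ points in all 3 pools, and Capg is also high in B cells.

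The difference between Foxp3+ and Foxp3- Cd4+ cells was tested with edgeR's quasi-likelihood test on molecules summed by pool and class, 6 sums with the pool as a block. The 3 pools here replicate the difference between classes and not the treatment. All 8 genes other than Foxp3, which defined the classes, were higher in Foxp3+ cells, where 9.88% of 9561 tested genes were higher and 6.97% lower at an adjusted p of 0.05. The log2 fold change was 4.55 for Lrrc32 (SE 0.24, Benjamini-Hochberg adjusted p = 2.78e-20 by edgeR) and 3.93 for Ikzf2 (SE 0.10, adjusted p = 1.31e-33). It was 2.72 for Ikzf4, 2.68 for Nrp1, 2.68 for Gpr83, 2.58 for Capg and 2.47 for Tiam1, with SEs from 0.13 to 0.20. Izumo1r had the smallest of the 8 differences at 1.70 (SE 0.08, edgeR adjusted p = 3.55e-22). The median over the 8 genes was 2.68, against -0.01 over all tested genes. These genes are known for this lineage and were chosen by name, so the direction is no independent finding. Among them Lrrc32 and Ikzf2 stood highest and Izumo1r lowest.

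Among the genes outside the set that are known to work with Foxp3, the surface and receptor genes were higher as a block. All 17 tested surface and receptor genes were higher in Foxp3+ cells, from a list of 18, with Il2ra, the high-affinity interleukin-2 receptor chain, 24.3-fold, Cd83 20.2-fold, Il2rb 4.65-fold and the costimulator Icos 3.47-fold. Of 12 genes listed for suppressive output 9 were tested, and 8 of these were higher. Among them were Klrg1 at 56.2-fold and granzyme B (Gzmb) at 31.8-fold, the latter on 10, 13 and 6 molecules in Foxp3+ cells. Il10, Il12a and Areg had 0 molecules there after saline and at 4 h, and 3, 0 and 1 at 8 h. A gene can pass the filter on low counts through the Foxp3+ sums alone, which favours higher genes in such counts. These and the other gene lists were also chosen with earlier results of these data known, so counts over them are no independent finding. Of 19 transcription factors that partner Foxp3 or belong to the Ikaros family, 5 were higher, with Rel at 1.89-fold and Gata3 at 1.87-fold. In that list 6 were lower, with Tcf7 at 0.350-fold, Lef1 at 0.399-fold, and Satb1 and Ikzf1 (0.485-fold) among them. Of 7 tested genes known to be low in regulatory T cells 5 were lower, including the interleukin-7 receptor Il7r at 0.425-fold, Igfbp4 at 0.184-fold and Pde3b at 0.194-fold.

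Other helper and signature genes moved less evenly. Of 6 tested genes of other helper programmes 3 were higher, Maf at 6.03-fold, Cxcr5 at 2.62-fold and Rora at 2.46-fold. The T follicular helper markers Bcl6, Cxcr5, Pdcd1 and Il21 together stood at 96.5 to 138 CPM in the 3 Foxp3+ sums, with Il21 at 0. In Foxp3- Cd4+ cells they stood at 41.9 to 56.0 CPM. Cxcr5 is itself in this sum, and the part of follicular helper cells in the Maf and Cxcr5 values was not tested. Of 15 tested further signature genes 10 were higher, led by Plagl1 at 10.4-fold and Socs2 at 9.67-fold, and Samhd1 was 1.88-fold higher. The homing receptor gene Ccr7 was lower, at 0.339-fold.

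Cd4+ cells in which no Foxp3 molecule was seen carried more of each of the 8 genes than Cd8+ cells. Of the 424 Foxp3+ cells 135 had only 1 Foxp3 molecule, so regulatory cells with none seen can lie in this class. Their part in the differences was not tested. In the edgeR test of Foxp3- Cd4+ against Cd8+ sums, all 8 were higher, where 16.4% of 10222 tested genes were higher and 16.2% lower. The log2 fold change was 3.35 for Tiam1, 2.69 for Nrp1, 2.47 for Lrrc32, 2.04 for Izumo1r, 1.45 for Capg, 1.10 for Gpr83 and 1.04 for Ikzf4. For Ikzf2 it was 0.37 (SE 0.07, Benjamini-Hochberg adjusted p = 2.90e-06 by edgeR), and DESeq2 did not call it (adjusted p = 0.0835). The order of the genes thus differed from that in the Foxp3 comparison: Tiam1 was among the smaller differences there and the highest here.

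Seen cell by cell, co-detection with Foxp3 ranged widely. All cells were thinned to 1500 molecules, which kept 400 Foxp3+, 5092 Foxp3- Cd4+, 5773 Cd8+ and 346 B cells. Ikzf2 was found in 57.5% of Foxp3+ cells (52.5 to 62.4), 4.97% of Foxp3- Cd4+ cells (4.39 to 5.60) and 4.59% of Cd8+ cells (4.06 to 5.16). Izumo1r was found in 51.5% of Foxp3+ cells, 19.1% of Foxp3- Cd4+ cells and 5.53% of Cd8+ cells. The helper share of Izumo1r set it apart from the other 7 genes, none of which was found in over 5% of Foxp3- Cd4+ cells of the 3 pools together. By pool Ikzf2 was found in 4.34% of them after saline, 4.63% at 4 h and 5.88% at 8 h.

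The remaining genes were each found in a minority of Foxp3+ cells. Tiam1 was found in 23.3% of Foxp3+ and 4.05% of Foxp3- Cd4+ cells, Ikzf4 in 19.3% and 3.10%, Capg in 18.0% and 3.67%, Nrp1 in 15.8% and 1.85%, Gpr83 in 12.8% and 2.26%, and Lrrc32 in 12.5% and 0.393%. For each of the 8 genes, chosen by name for this lineage, the Foxp3+ share was the higher. Cells are not replicates here, and the same count over all genes was not made. In B cells Ikzf2 was found in 0 of 346, which allows a share of up to 1.06%, while Capg was found in 20.5%. A molecule that is not seen at this depth is not shown to be absent from the cell.

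The reverse share, how often a cell with a given gene also had Foxp3, put Lrrc32 first. In the unthinned Cd4+ cells Foxp3 was found in 89 of 128 cells with Lrrc32 (69.5%), in 272 of 632 with Ikzf2 (43.0%), in 92 of 260 with Nrp1 (35.4%) and in 119 of 347 with Ikzf4 (34.3%). For Tiam1 it was 146 of 458 cells (31.9%), for Gpr83 80 of 257 (31.1%), for Capg 135 of 471 (28.7%) and for Izumo1r 268 of 1689 (15.9%). Cd4+ cells with Il2ra held Foxp3 in 59.2% and cells with Ctla4, an inhibitory receptor, in 49.5%. Cells without Ikzf2 held Foxp3 in 2.96%. Lrrc32 was the rarest of the 8 in Foxp3- cells and Izumo1r the most frequent.

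Cells with more Foxp3 also carried more of several of the genes. Over cells with 0, 1, 2 or 3, and 4 or more Foxp3 molecules, Ikzf2 was found in 4.97%, 39.4%, 65.6% and 66.2% after thinning. Tiam1 was found in 4.05%, 12.6%, 23.7% and 32.4%, and Lrrc32 in 0.393%, 8.66%, 12.2% and 16.2%. Izumo1r, at 19.1%, 40.9%, 58.8% and 54.2%, Ikzf4, at 3.10%, 10.2%, 23.7% and 23.2%, and Nrp1, at 1.85%, 9.45%, 20.6% and 16.9%, were no higher in the last step. Gpr83, at 2.26%, 12.6%, 13.0% and 12.7%, was nearly level from the first molecule on. Capg stood at 3.67%, 15.7%, 13.0% and 24.6%. Cells with 4 or more Foxp3 molecules were also deeper before thinning, with a median of 2774 molecules against 2389 in those with 1.

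**Figure D2:**
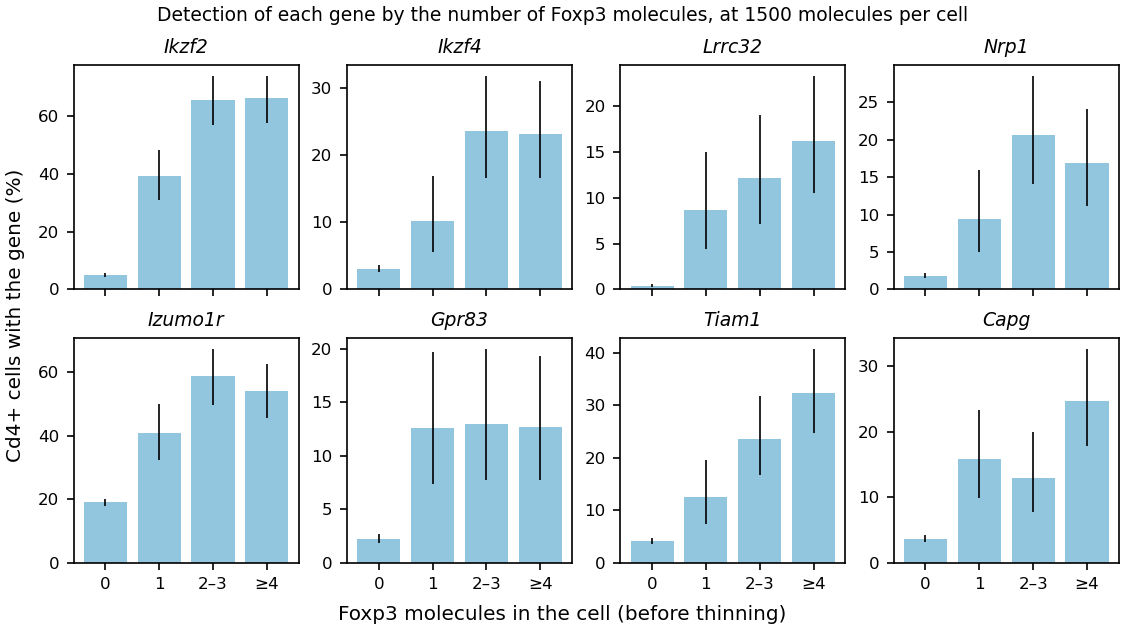
Share of Cd4+ cells of all 3 pools with each gene after thinning to 1500 molecules, in percent (bars), by the number of Foxp3 molecules in the cell before thinning, with exact 95% intervals. Ikzf2 and Izumo1r are high from 2 molecules on, while Gpr83 stays near 13.0% at 1 or more.

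The 8 genes were seen together far more often in Foxp3+ cells. A thinned Foxp3+ cell held a mean of 2.10 of the 8 (all 400 cells), a Foxp3- Cd4+ cell 0.394 and a Cd8+ cell 0.153. At least 3 of the 8 were found in 150 of the 400 Foxp3+ cells (37.5%), with 39.3% after saline, 35.0% at 4 h and 38.4% at 8 h, in 2.71% of Foxp3- Cd4+ cells and in 0.208% of Cd8+ cells. None of the 8 was found in 14.8% of Foxp3+ cells, 71.3% of Foxp3- Cd4+ cells and 86.3% of Cd8+ cells. No Foxp3+ cell held more than 7 of the 8.

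**Figure D3:**
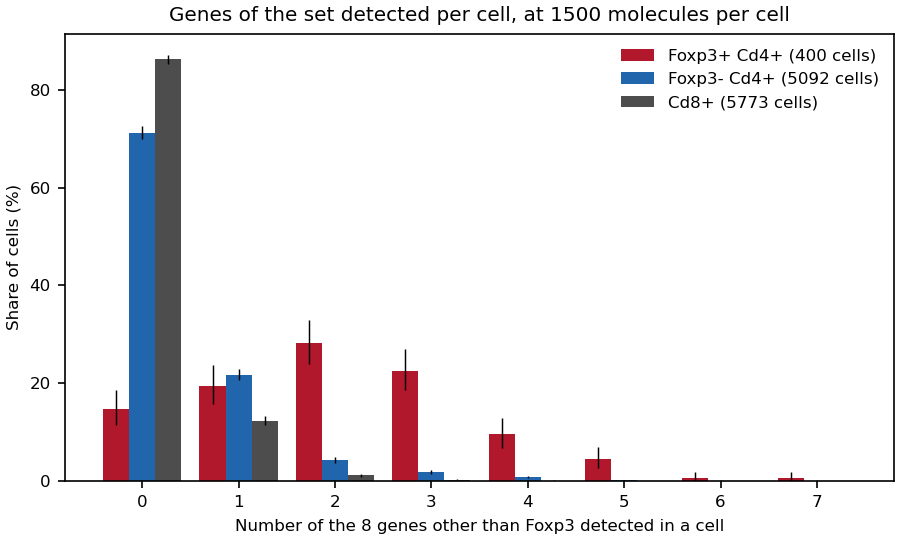
Number of the 8 genes other than Foxp3 found in a cell thinned to 1500 molecules, as percent of the cells of each class over all 3 pools (bars), with exact 95% intervals. None of the 8 is found in 71.3% of Foxp3- Cd4+ and 86.3% of Cd8+ cells but in 14.8% of Foxp3+ Cd4+ cells.

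Within Foxp3+ cells the genes were only weakly tied to each other. The phi coefficient, a correlation of detected against not detected, lay between -0.0862 and 0.210 over the 28 pairs in the 400 cells and was above 0 for 23 of them. Ikzf2 with Tiam1 was the highest pair, with 71 cells holding both where 53.5 would be the product of the shares, and the neighbours Izumo1r and Gpr83 had a phi of 0.131. Of the 5 pairs below 0, 4 included Gpr83. These are descriptions of sparse counts, and correlations of this size are no finding.

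Over all 5492 thinned Cd4+ cells of the 3 pools, the 10 genes whose detection was most like that of Foxp3, of 8514 ranked, were Il2ra (phi 0.466), Ikzf2 (0.455), Il2rb (0.310), Ctla4 (0.301), Lrrc32 (0.276), Tnfrsf4 (0.270), Cd83 (0.242), Coro2a (0.234), Tnfrsf9 (0.211) and Tiam1 (0.210). Ikzf2, Lrrc32 and Tiam1 thus ranked 2, 5 and 10. Only genes found in at least 1% of these cells were ranked. Lrrc32 was found in 1.27% of them and in 0.393% of the Foxp3- ones, so it was ranked only because of the Foxp3+ cells. Nrp1 ranked 13, Ikzf4 15, Izumo1r 16, Capg 24 and Gpr83 26. The cells share a capture and their number of molecules after thinning, and the coefficients are given as a description.

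Some cells without a Foxp3 molecule carried several of these genes. Unthinned, 250 of 5347 Foxp3- Cd4+ cells held at least 3 of the 8 genes, with 71 of 1765 after saline (4.02%), 76 of 1719 at 4 h (4.42%) and 103 of 1863 at 8 h (5.53%). Their Il2ra stood at 180 CPM, against 5.92 CPM in the 3309 Foxp3- cells with none of the 8, their Ctla4 at 123 against 3.78 and their Tnfrsf4, the OX40 receptor, at 126 against 8.06. Il7r was at 380 CPM in the cells with at least 3 and 1084 in those with none. Genes of T follicular helper cells were also higher in the cells with at least 3, with Bcl6 at 47.9 against 15.0 CPM, Cxcr5 at 81.8 against 3.90 and the inhibitory receptor Pdcd1 at 80.7 against 1.64. The cells with at least 3 had a median of 2780 molecules against 2356, and the part of depth or of follicular helper cells in the values was not tested.

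In the opposite case, Foxp3+ cells with none of the 8, several of the same genes stood lower. The 48 unthinned cells of this kind had Il2ra at 292 CPM, against 690 in the 232 Foxp3+ cells with at least 3. Their Ctla4 stood at 18.3 against 276 CPM, and their Tnfrsf4 at 0 molecules against 316 CPM. Cxcr5 and Pdcd1 were at 0 molecules in the cells with none, against 50.4 and 62.7 CPM. Il7r stood at 859 against 413 CPM, and Bcl6, on 9 and 19 molecules, at 82.2 against 23.4 CPM, the other way from the Foxp3- cells. The median was 2391 molecules a cell in those with none and 2836 in those with at least 3.

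Foxp3 was also found outside the Cd4+ class. Of all 811 Foxp3+ cells 424 were in the Cd4+ class and 240 were T cells with neither Cd4 nor Cd8, 9.0% (7.94 to 10.2) of 2666 such cells. The share was 8.86% after saline, 8.94% at 4 h and 9.20% at 8 h. Their Ikzf2 stood at 1000 CPM, Izumo1r at 688, Tiam1 at 205, Gpr83 at 192, Ikzf4 at 189, Lrrc32 at 183, Nrp1 at 158, Capg at 133 and Il2ra at 901. In the 424 Foxp3+ Cd4+ cells Ikzf2 stood at 1100 CPM, Izumo1r at 713, Tiam1 at 251 and Il2ra at 620. The 2 kinds of Foxp3+ cells had median depths of 2188 and 2488 molecules.

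In Cd8+ cells Foxp3 was rare. It was found in 20 of 1965 cells after saline (1.02%), 9 of 2052 at 4 h (0.439%) and 23 of 1941 at 8 h (1.18%), against 2 of 388 B cells (0.515%, 0.0625 to 1.85), a class that should lack it. The interval of the B cell share covers all 3, but it rests on 2 cells and is too wide to set a background. The 52 Foxp3+ Cd8+ cells held 115 Foxp3 molecules, and the 2 B cells held 2. Whether the Cd8+ share lies above background was not tested. Median depths were 2762 molecules in Cd8+ and 2180 in B cells. In the 52 Foxp3+ Cd8+ cells Ikzf2 stood at 321 CPM, Izumo1r at 334, Gpr83 at 118 and Il2ra at 360. These rested on 49, 51, 18 and 55 molecules. Nrp1 stood at 78.5 CPM, Lrrc32 at 72.0, Ikzf4 at 52.3, Tiam1 at 39.3 and Capg at 13.1, on 12, 11, 8, 6 and 2 molecules. In Foxp3- Cd8+ cells Ikzf2 stood at 48.8 CPM, Izumo1r at 46.0 and Il2ra at 3.33. Capg stood at 10.7 CPM there, Ikzf4 at 9.93, Gpr83 at 8.04, Tiam1 at 3.73, Nrp1 at 1.95 and Lrrc32 at 0.287.

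Helios is known to mark a part of the regulatory T cells, and here it split the Foxp3+ Cd4+ cells into 272 with and 152 without an Ikzf2 molecule. Cells with Ikzf2 held Nrp1 at 174 CPM after saline, 152 at 4 h and 135 at 8 h, against 37.1, 8.82 and 58.2 without it. Tiam1 stood at 340, 266 and 355 CPM with Ikzf2 and at 46.3, 141 and 65.5 without it. Both genes were higher with Ikzf2 in every pool. Without Ikzf2 the values rested on few molecules, 4, 1 and 8 of Nrp1 and 5, 16 and 9 of Tiam1. Gpr83 stood at 113, 138 and 116 CPM with Ikzf2 and at 130, 273 and 116 without it. In the edgeR test of this split, in which 5.4% of 3740 tested genes were higher and 3.93% lower, 5 of 8 genes were higher. Here too a gene can pass the filter on low counts through the sums with Ikzf2 alone, which favours higher genes. The log2 fold change was 2.06 for Nrp1 (SE 0.38, Benjamini-Hochberg adjusted p = 4.91e-06 by edgeR), 1.91 for Tiam1 (SE 0.26, adjusted p = 6.50e-11), 0.68 for Izumo1r, 0.88 for Ikzf4 and 0.86 for Capg. Lrrc32 at 0.60, Gpr83 at -0.49 and Foxp3 itself at 0.16 did not pass. Only Tiam1 was called by DESeq2, where Nrp1 had an adjusted p of 0.0542 and Izumo1r of 0.0849. Ikzf4 and Capg lost the call after thinning. The cells with Ikzf2 had a median of 2689 molecules against 2344, and Ikzf2 itself chose them.

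Of 13 tested surface and receptor genes 10 were higher in the cells with Ikzf2, among them Icos at 3.33-fold and Il2rb at 1.52-fold. The same limit of the filter on low counts holds for this count. Il2ra had a ratio of 1.22 and did not pass. All 155 Klrg1 molecules of the Foxp3+ cells lay in cells with Ikzf2, at least 20.6-fold more per molecule than the 3-count floor over the cells without it. Maf was 2.82-fold higher, Satb1 0.330-fold, Tcf7 0.412-fold and Igfbp4 0.171-fold as high.

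**Figure D4:**
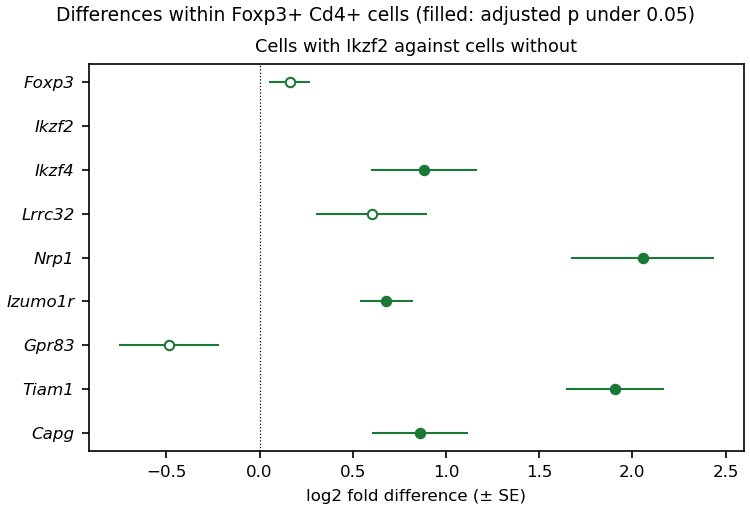
Log2 fold difference (horizontal axis) with its SE within Foxp3+ Cd4+ cells, for cells with against cells without an Ikzf2 molecule, filled where the edgeR adjusted p was under 0.05. Nrp1, at 2.06, and Tiam1, at 1.91, lie farthest to the right, and Gpr83, at -0.49, lies left of 0.

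The 4 h and 8 h pools were each set against the saline pool, which the 2 comparisons share. A gene counted as different when it was more than 25% above or more than 20% below saline and had at least 100 molecules in the compared pools together. At 4 h, 8 of the 9 genes had enough molecules, and 1 was higher and 0 lower, against 10.3% higher and 10.8% lower of 1520 genes. At 8 h, 7 of the 9 had enough, and 0 were higher and 0 lower, against 8.15% and 11% of 1522 genes. With so few genes these counts do not set the 9 apart from the other genes in either direction.

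The gene that passed at 4 h was Gpr83, with 42 molecules after saline, 77 at 4 h and 53 at 8 h. Its ratio to saline was 1.45 at 4 h (0.986 to 2.17) and 0.983 at 8 h (0.643 to 1.51), and a single cell held 14.3% of its saline molecules. Ikzf2 was at 0.908 of saline at 4 h (0.797 to 1.03) and 0.809 at 8 h (0.708 to 0.926), on 435, 498 and 452 molecules. The 8 h interval of Ikzf2 excluded 1 in counting error only, and the ratio was 0.924 (0.826 to 1.03) when all T cells without Cd8 were used. In that wider class Gpr83 was at 1.35 of saline at 4 h (1.00231 to 1.84). Of the other genes, Izumo1r was at 1.02 and 1.11, Tiam1 at 0.935 and 1.07, Capg at 1.10 and 0.881, Ikzf4 at 0.878 and 1.03, Nrp1 at 0.877 and 0.845, and Lrrc32 at 1.05 and 0.841. In the saline pool 1 cell held 26.0% of the Lrrc32 molecules.

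In Foxp3- Cd4+ cells 7 genes had enough molecules at each time. At 4 h 2 were higher and 0 lower, against 4.93% higher and 3.84% lower of 7764 genes. These were Ikzf4 at 1.51 (1.14 to 2.01) and Nrp1 at 1.33 (0.963 to 1.83, an interval that includes 1). At 8 h 2 were higher and 0 lower, Ikzf2 at 1.41 (1.21 to 1.65) and Gpr83 at 1.41 (1.06 to 1.9), against 4.02% and 4.49% of 7831 genes. Lrrc32, at 1.97 (1.11 to 3.62), had 19 molecules after saline and 39 at 8 h, too few to count. In Cd8+ cells 0 of 4 genes with enough molecules differed at 4 h, against 4.2% higher and 2.79% lower of 8168 genes. At 8 h 2 of 5 were higher, against 3.98% higher and 3.62% lower of 8119 genes. These were Ikzf4 at 1.64 (1.13 to 2.39) and Gpr83 at 1.5 (0.992 to 2.30, an interval that includes 1). The Foxp3 molecules of Cd8+ cells were at 0.398 of saline at 4 h (0.216 to 0.705), on 43 and 18 molecules. These molecules lay in 20 cells after saline and in 9 at 4 h. For the other genes, the sums alone do not tell fewer cells of a kind from fewer molecules a cell.

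**Figure D5:**
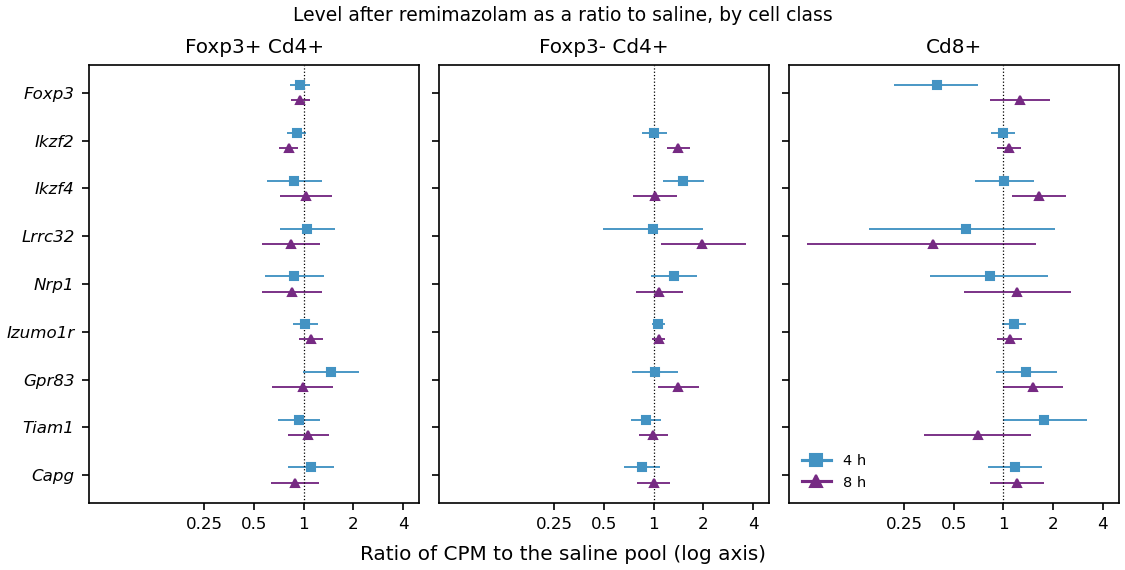
Ratio to the saline pool (log axis) of each gene's CPM at 4 h and 8 h in Foxp3+ Cd4+, Foxp3- Cd4+ and Cd8+ cells, with 95% conditional binomial intervals that cover counting error only. In Foxp3+ cells every interval but that of Ikzf2 at 8 h, at 0.809, includes 1.

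The listed gene groups were counted in the same way in Foxp3+ cells, against the same shares over all genes (10.3% higher and 10.8% lower at 4 h, 8.15% and 11% at 8 h). Of the surface and receptor genes with at least 100 molecules, 2 of 10 were higher and 1 lower at 4 h, and 4 of 11 were higher and 1 lower at 8 h. Il2ra stood at 527 CPM after saline, 645 at 4 h and 667 at 8 h, with ratios of 1.23 (1.02 to 1.48) and 1.27 (1.05 to 1.53). Tnfrsf9, the 4-1BB receptor, stood at 248, 154 and 195 CPM. Among the further signature genes Ly6a stood at 228, 324 and 388 CPM, with a ratio of 1.70 at 8 h (1.30 to 2.24). Igfbp4, a gene low in regulatory T cells, stood at 130, 123 and 241 CPM, with a ratio of 1.86 at 8 h (1.31 to 2.69). Of the partner factors 1 of 10 was higher and 2 lower at 4 h, Ikzf1, Cbfb and Gata3, and 0 of 11 higher and 1 lower at 8 h. Il2ra, Tnfrsf9, Ly6a and Igfbp4 were named here after their values were seen.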

How the data were processed

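Spleen cells of 3 pools of mice, 1 sample tag a pool, were measured in 1 BD Rhapsody whole-transcriptome capture. The authors deposited whole-number RSEC-adjusted molecule counts for each cell and gene. Per the file headers, these were made with BD's WTA Multiplex pipeline (version 1.9.1) on genome GRCm38 with GENCODE M19. The aligner and its settings were not given in the sources used here. Each gene's deposited sequencing depth is a ratio of reads to molecules, made by the authors' pipeline, and served only as a check. It was 4.83 to 5.96 for the 9 genes and 4.87 at the median of all genes.

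Of 17299 putative cells, 1063 multiplets, 60 cells with an undetermined tag and 2 with another tag were left out. The 16123 kept cells had at least 200 genes and under 25% mitochondrial molecules. T cells had at least 1 Cd3e, Cd3d or Cd3g molecule and fewer than 2 molecules over the B cell marker genes, and B cells at least 3 of these and no Cd3. One planned split of the Foxp3+ cells is not reported here. No doublet caller was run within a pool. Classes were compared with edgeR 4.0.16 (quasi-likelihood, R 4.3.3) on molecules summed by pool and class, with the pool as block because both sums of a pool come from the same mice, and Benjamini-Hochberg adjustment over all genes tested. The fit was tested on simulated data, and DESeq2 1.42.0 was an alternative. The pools are not replicates of a treatment, and whether the 3 differ by more than technical spread is unknown. Python 3.11.15 with scipy 1.17.1 gave the intervals.

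The text names all 9 genes, the 10 nearest to Foxp3 by phi and, of each listed gene group, the 3 with most molecules in Foxp3+ cells and the 2 largest differences in each direction past the threshold. A few others were named after their values were seen. The members and the lists were chosen with earlier results of these data known. Other alternatives were other scalings, filters, cell classes and thinning, and leaving out each pool. The alternative that takes all T cells without Cd8 was chosen after seeing the data.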

Additional observations from a re-analysis of the deposited data

Results flagged for a closer look

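Foxp3 appeared in cells outside the Cd4+, Cd8+ and B classes at shares above the 0.515% of B cells, a class that should lack it. It was found in 9.0% of T cells with neither Cd4 nor Cd8 (240 of 2666), in 7.08% of T cells with both (58 of 819) and in 6.72% of other cells without a T cell call (35 of 521). The intervals were 7.94 to 10.2, 5.42 to 9.06 and 4.72 to 9.22, against 0.0625 to 1.85 in B cells. The B cell share rests on 2 cells and does not set a background. Foxp3+ T cells with both Cd4 and Cd8 had a median of 3161.5 molecules, against 2488 in Foxp3+ Cd4+ cells. No doublet caller was run within a pool, and the part of doublets was not tested. In the Foxp3+ cells without a T cell call Ikzf2 stood at 954 CPM and Cd4 at 645 CPM.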

How the results depend on the processing

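The number of the 9 genes more than 25% above or more than 20% below saline in Foxp3+ cells went from 1 to 2 at 4 h when each cell had equal weight, without the top cell of each pool, or without the 3% of cells with most molecules, and from 0 to 1 at 8 h with equal weight. Genes called between Foxp3+ and Foxp3- Cd4+ cells numbered 1611, against 839 with DESeq2, 893 after thinning and 1007 to 1300 without 1 pool. For Foxp3- Cd4+ against Cd8+ cells they numbered 3335, against 1301 with DESeq2 and 2678 to 2716 without 1 pool. The Ikzf2 split called 349, against 59 with DESeq2, 149 after thinning and 205 to 286 without 1 pool. Without the replicate block, that is without pairing the sums of a pool, the 3 comparisons called 1773, 2991 and 335 genes. The cause of these changes was not tested.

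The share of called genes that were higher moved by over 10 percentage points from 57.9% to 76.0% in the Ikzf2 split with no filter on low counts. In the Foxp3 comparison the 8 genes kept direction and call in 112 of 112 refits. The comparison of Foxp3- Cd4+ with Cd8+ cells lost 1 call in 56 refits, Ikzf2 with DESeq2. The Ikzf2 split lost 11 in 64, all with the same direction: Ikzf4 and Capg in some refits without 1 pool and after thinning, Ikzf4 with no filter on low counts, and Ikzf4, Capg, Nrp1 and Izumo1r with DESeq2. Depth limits the rare genes most: Lrrc32 in Cd8+ cells rested on 3 to 8 molecules a pool.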
